A study of Mus musculus with 6 samples.

Results

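Club cells are the secretory cells of the conducting airways. The 10 genes described here, Scgb1a1, Scgb3a1, Scgb3a2, Cyp2f2, Cbr2, Upk3a, Gabrp, Pon1, Chad and Lypd2, were taken by name as club cell, secretoglobin and airway secretory genes, and every probe set whose annotation names exactly 1 gene, and that gene one of the 10, was included. This gave 11 probe sets of the 45037 tested, 2 of them for Gabrp and 1 for each other gene, and 10 of the 18193 genes that such probe sets name. The RNA came from whole lungs of mouse embryos at E18.5, late in gestation, hybridised to 6 Affymetrix Mouse430_2 arrays, and the question of the series is which lung genes depend on GATA6, a zinc finger transcription factor. The groups were 3 GATA6 KO arrays (KO 1, KO 2 and KO 3), also called GATA6 null in the labels, and 3 wild-type arrays (WT 1, WT 2 and WT 3). The labels give no strain, no driver or cell type for the deletion, and no statement on whether an array holds 1 embryo or a pool, so the spread between arrays may be technical in part.

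Club cells line the bronchioles between ciliated cells, secrete small dimeric proteins of the secretoglobin family into the airway fluid, and carry cytochrome P450 enzymes that oxidise inhaled compounds. They also serve as progenitors that renew the airway epithelium after injury. In the mouse their products appear in the fetal airway before birth, Scgb3a2 earlier than Scgb1a1, under transcription factors that include Nkx2-1 and the Foxa factors.

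Values are log2 of the deposited intensity plus 16, and a difference is the GATA6 KO mean minus the wild-type mean on that scale. A probe set with neither group mean above 6.88 log2, the median of the genes' means, is called dim. The lowest reading on any array was 4.17 log2. Of the 11 probe sets, 9 were above that median in at least 1 group, and the Upk3a probe set and the second Gabrp probe set were not. Checked against the label, Scgb1a1, Scgb3a2 and Cbr2 each read above 13 log2 on all 6 arrays. Krt5 and Trp63, defining markers of basal cells, and Muc5ac, of goblet cells, read near the floor on every array, at most at 4.76 and 4.51 log2. Other listed markers of these types read higher. Of 6 basal markers, 1 was above that median in a group, Dlk2, with means of 6.53 in KO and 7.25 in WT. Of 8 goblet markers 2 were, Muc5b and Creb3l1.

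Facts of the 6 arrays bear on every value below. None of the 3 probe sets of Gata6 was lower on average in the KO arrays. The brightest averaged 11.39 ± 0.19 log2 in the arrays labelled KO and 10.60 ± 0.46 in those labelled WT (SD, n = 3 each; limma adjusted p = 0.963), and where it lies relative to the deleted part is not known here, so every direction below is one between labels. An index of unnamed signal was the median of probe sets without a gene name minus that of probe sets naming 1 gene. Both medians took only probe sets with a mean over the 6 arrays above 6.88 log2. The index was -0.46, -0.03 and -0.23 log2 in KO 2, KO 3 and WT 1. It was lower in KO 1, WT 2 and WT 3, at -0.96, -1.02 and -0.94. Fluidics station 2 washed the 3 KO arrays and WT 3, and station 1 the other two. In bulk tissue, fewer cells of a type and less RNA per cell cannot be told apart.

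No club cell gene passed the test between the labels. In limma 0 of the 11 probe sets passed an adjusted p of 0.05, where 0 of all 45037 did (0%), and 0 of the 11 had an unadjusted p under 0.05, where 1394 did (3.1%). The smallest adjusted p among the 11 was 0.963. Of the 11, 8 read higher in the KO arrays on average, beside 63% of all probe sets and 46.1% of bright ones, and the median difference was 0.43 log2, beside 0.003 over all probe sets and -0.02 over bright ones. In 2 of the 11, Cyp2f2 and Scgb3a2, all 3 KO arrays lay above all 3 WT arrays, which 5.72% of all probe sets and 4.65% of bright ones did. In 0 of the 11 did all 3 KO arrays lie below, where 2.76% of all probe sets did. With 3 arrays against 3 the exact permutation test cannot go below 0.1. A difference that missed limma's threshold is not shown to be absent.

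**Figure D1:**
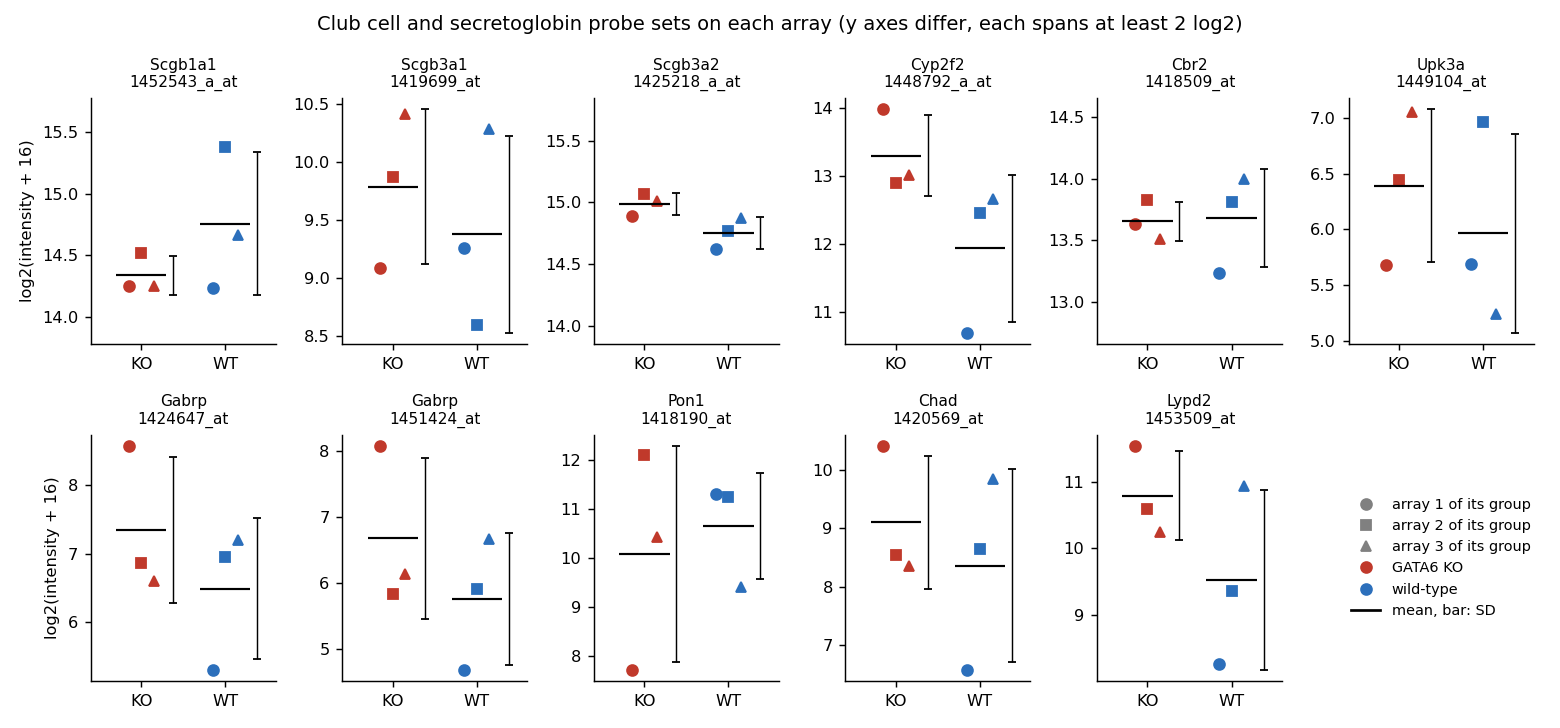
Each panel shows 1 probe set, with log2(intensity + 16) on the y axis and the 3 GATA6 KO arrays (red) left of the 3 wild-type arrays (blue); symbols mark the array number within its group, the line is the mean and the bar the SD. The groups are apart in the panels of Scgb3a2 and Cyp2f2 and overlap in the other 9.

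The 3 secretoglobins are taken first. Scgb1a1, the most abundant secreted protein of club cells and the usual marker of the type, read 14.25, 14.52 and 14.25 log2 in KO 1, KO 2 and KO 3, and 14.23, 15.38 and 14.66 in WT 1, WT 2 and WT 3. The 3 KO arrays lay within 0.27 log2 of each other and close to WT 1, while WT 2 stood highest, so the groups overlapped. The difference was -0.42 log2 (SE 0.30; 95% interval -1.15 to 0.31; exact permutation p = 0.4, two-sided), and it was -0.11 without WT 2, -0.68 without WT 1 and -0.94 (SE 0.34) with arrays weighted by their quality.

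Scgb3a2, a secretoglobin of the fetal airway epithelium, read 14.89, 15.07 and 15.01 log2 in the KO arrays and 14.62, 14.77 and 14.88 in the WT arrays. Every KO array lay above every WT array, narrowly so for KO 1 over WT 3. The difference was 0.24 log2 (SE 0.11; 95% interval -0.03 to 0.50; limma adjusted p = 0.963; exact permutation p = 0.1, the smallest possible), a ratio of 1.18 on this scale. Its spread within groups was 0.11 log2, the smallest of the 11, and within station 2 the difference was 0.11.

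Scgb3a1, a secretoglobin known from the larger airways, read 9.09, 9.87 and 10.41 log2 in the KO arrays and 9.26, 8.60 and 10.28 in the WT arrays. The groups covered nearly the same range, with KO 3 and WT 3 high and KO 1, WT 1 and WT 2 low. The difference of 0.41 log2 (SE 0.52; 95% interval -0.88 to 1.70) was smaller than the within-group SD of 0.76. It was 0.02 without WT 2, 0.10 without KO 3, 0.76 without KO 1 and 0.86 without WT 3, and turned to -0.49 within station 2, where WT 3 is the only WT array.

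Among the enzymes, Cyp2f2 showed the largest mean difference of the 11. It encodes the cytochrome P450 that activates naphthalene in mouse club cells and so makes them sensitive to it. Its intensity was 16151, 7572 and 8271 in KO 1, KO 2 and KO 3, and 1642, 5625 and 6460.2 in WT 1, WT 2 and WT 3. All 3 KO arrays were above all 3 WT arrays, KO 1 standing highest and WT 1 far below the rest. On the log2 scale the means were 13.30 ± 0.60 in KO and 11.94 ± 1.08 in WT (SD, n = 3 each), a difference of 1.36 (SE 0.60; 95% interval -0.12 to 2.83; limma adjusted p = 0.963; exact permutation p = 0.1), or 2.56-fold higher. Without WT 1 the difference was 0.73, without KO 1 it was 1.01, and within station 2 it was 0.63.

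Cbr2, a carbonyl reductase abundant in mouse lung, read 13.63, 13.82 and 13.51 log2 in the KO arrays and 13.24, 13.81 and 14.00 in the WT arrays. The KO arrays lay inside the range of the WT arrays. The difference was -0.03 log2 (SE 0.22), with a 95% interval of -0.56 to 0.51.

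Pon1, a paraoxonase that hydrolyses organophosphates and lactones and is best known as a liver product carried on plasma lipoprotein, varied most. It read 7.72, 12.10 and 10.43 log2 in KO 1, KO 2 and KO 3, and 11.31, 11.24 and 9.41 in WT 1, WT 2 and WT 3. The lowest and the highest of the 6 arrays were both KO arrays, 4.38 log2 apart. The difference of -0.57 log2 (SE 1.18; 95% interval -3.48 to 2.35) was 0.61 without KO 1 and 0.68 within station 2, the opposite direction, and -1.58 without KO 2. Of 9 liver markers measured, Apoa1, Fgb, Ahsg, Serpina1b and Apoh read at most 4.61 log2 on every array. Ttr reached 6.02, and Afp, the fetal serum protein, read 6.66, 4.96 and 6.59 in the KO arrays and 4.88, 7.85 and 7.30 in the WT arrays. Afp was highest in WT 2, where Pon1 was also high, and lowest in WT 1 and KO 2, the arrays with the highest Pon1. Alb, which encodes albumin, read 10.31, 7.14 and 8.49 log2 in the KO arrays and 4.84, 8.19 and 8.21 in the WT arrays. It was thus highest where Pon1 was lowest, in KO 1. The summed intensity of the 9 ran from 190 to 1408 in KO and from 67.4 to 591 in WT, and its part in the level of Pon1 was not tested.

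The 4 genes of the cell surface and matrix split into a dim one and 3 that varied widely. Upk3a, a uroplakin of the urothelial plaque that also marks a subset of mouse club cells near neuroendocrine bodies, read 5.68, 6.44 and 7.05 log2 in the KO arrays and 5.69, 6.96 and 5.24 in the WT arrays. The groups overlapped over nearly their whole range, with a difference of 0.43 (SE 0.57; 95% interval -0.98 to 1.84), 0.07 without WT 3, 0.10 without KO 3, 0.93 without WT 2 and 1.16 within station 2. Of the other uroplakins listed, Upk1a and Upk2 read at most 4.90 log2 on every array. Upk1b, the tetraspanin that pairs with Upk3a in the urothelial plaque, was bright, at 9.12, 10.53 and 10.22 log2 in the KO arrays and 9.61, 8.57 and 8.87 in the WT arrays, overlapping between the labels (difference 0.94, SE 0.44). The 7 mesothelial and urothelial markers, among them the mesothelial Upk3b and Msln, summed to between 4715 and 11845 in KO and between 6253 and 11332 in WT.

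Gabrp, the pi subunit of the GABA type A receptor, a chloride channel, is measured by 2 probe sets designed on the same transcript record. The first read 8.57, 6.87 and 6.60 log2 in the KO arrays and 5.31, 6.95 and 7.20 in the WT arrays, and the second 8.07, 5.82 and 6.12 in KO and 4.68, 5.91 and 6.66 in WT. Both were highest in KO 1 and lowest in WT 1, and of the other 4 arrays WT 3 was the highest in both. The differences were 0.86 log2 (SE 0.73) and 0.92 (SE 0.78). Without KO 1 they were 0.25 and 0.22, without WT 1 they were 0.27 and 0.39, and within station 2 they were 0.14 and 0.01.

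Chad, chondroadherin, is a leucine-rich matrix protein best known from cartilage. It read 10.41, 8.54 and 8.36 log2 in the KO arrays and 6.57, 8.64 and 9.85 in the WT arrays. KO 1 and WT 3 were high, WT 1 was low, and the groups overlapped, with a difference of 0.75 (SE 0.97; 95% interval -1.64 to 3.14). It was 0.09 without KO 1, -0.14 without WT 1 and -0.75 within station 2. Of 13 cartilage markers measured, Hapln1 alone was bright, and the defining Col2a1 and Acan read at most 4.35 log2 on every array. The 13 summed to between 205 and 624 in KO and between 253 and 515 in WT. Col9a1, dim and chosen after its values were seen, read 8.36 log2 in KO 1 and 6.66 in WT 3, and at most 5.52 in the other 4. Chad was highest in the same 2 arrays. The bright Hapln1 read 7.93, 7.88 and 6.81 log2 in the KO arrays and 7.40, 8.07 and 8.51 in the WT arrays. The part of cartilage in the level of Chad was not tested.

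Lypd2, a small membrane protein of the Ly6 family, read 11.54, 10.59 and 10.24 log2 in the KO arrays and 8.27, 9.37 and 10.94 in the WT arrays. WT 1 and WT 2 lay below every KO array and WT 3 above KO 2 and KO 3. The difference was 1.27 (SE 0.72; 95% interval -0.52 to 3.05; exact permutation p = 0.3), or 2.40-fold higher in KO. It was 0.64 without WT 1, 1.97 without WT 3 and -0.15 within station 2.

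**Figure D2:**
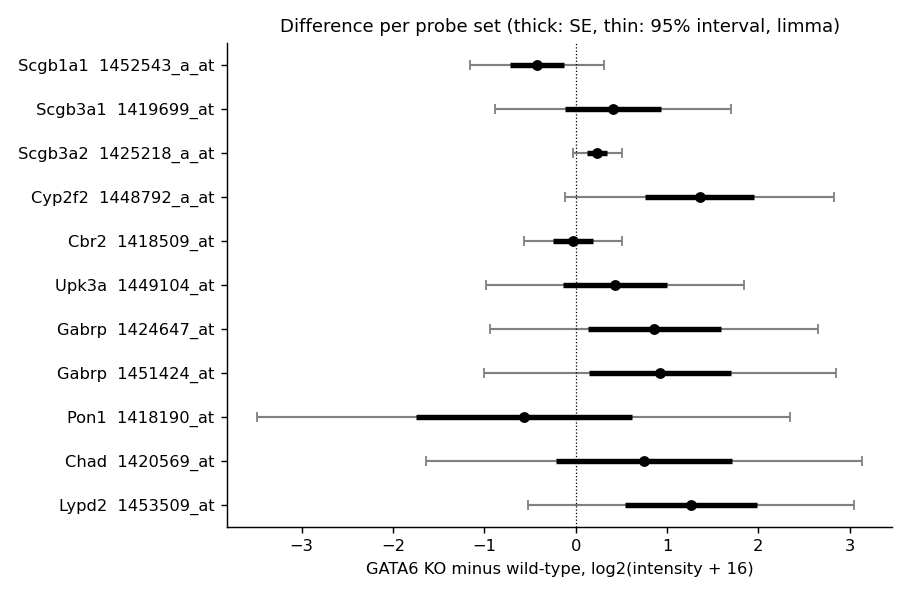
Difference of GATA6 KO minus wild-type per probe set on the x axis (log2), with the standard error (thick) and the 95% interval (thin) of the limma fit. All 11 intervals contain 0; Scgb3a2 has the narrowest interval and Pon1 the widest.

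Most of the club cell genes varied widely between arrays of the same label. The median within-group SD of the 11 probe sets was 0.87 log2, beside 0.26 over 16592 bright probe sets, and 10 of the 11 lay above that median. Only Scgb3a2 lay below it, and Pon1 (1.74), Chad (1.42), the 2 of Gabrp (1.05 and 1.12) and Lypd2 (1.06) had the largest. WT 1 was the lowest array for 8 of the 11 probe sets and KO 1 the highest for 5. Both held at once for Cyp2f2, Chad, Lypd2 and both probe sets of Gabrp, 5 of the 11, beside 8.61% of bright probe sets.

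These 4 genes were grouped by their shared extremes, KO 1 and WT 1. Grouping by shared extremes tends to raise r on the same arrays. A high r within the group is therefore partly built in and is no separate support for a relation. Leaving out shared extremes tends to lower r, so a lower r on the other 4 arrays does not show what a relation rests on. Of 45 pairs among the 10 genes, the 6 pairs within Cyp2f2, Chad, Gabrp and Lypd2 were those with Pearson's r above 0.8. Only the first, brighter Gabrp probe set entered these pairs, and the second ordered the arrays differently. The first Gabrp probe set and Chad had r = 0.956 (exact permutation p = 0.00417, adjusted p = 0.188 over the 45 pairs). Their Spearman's rho was 1 (exact permutation p = 0.00278, adjusted p = 0.125), and r was 0.893 without KO 1 and WT 1. Cyp2f2 and Gabrp had r = 0.921 (exact permutation p = 0.0611, adjusted 0.458) and rho = 0.486 (exact permutation p = 0.356, adjusted 0.727), and r = -0.687 without the same 2 arrays. Cyp2f2 and Lypd2 had r = 0.919 (exact permutation p = 0.0111, adjusted 0.208) and rho = 0.771 (exact permutation p = 0.103, adjusted 0.704), and r = 0.478 without those 2. Without them r was -0.409 for Cyp2f2 and Chad, 0.309 for Gabrp and Lypd2, and 0.559 for Chad and Lypd2. No pair passed after adjustment. With 4 arrays on station 2 and 2 on station 1, relations within a station were not computed. For the first Gabrp probe set and Chad the 3 lowest arrays were WT 1, KO 3 and KO 2, the same 3 that had the higher index of unnamed signal. For the second Gabrp probe set they were WT 1, KO 2 and WT 2, and WT 2 had the lowest index. With that index as a covariate the differences were 1.40 (SE 0.27) for the first Gabrp probe set, 1.43 (SE 0.52) for Chad and 1.77 (SE 0.33) for Cyp2f2. Their limma adjusted p were 0.741, 0.75 and 0.726. In that fit 9 of the 11 probe sets read higher in KO, 5 had an unadjusted limma p under 0.05 and 0 passed. The share of all probe sets with such an unadjusted p in that fit was not counted.

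**Figure D3:**
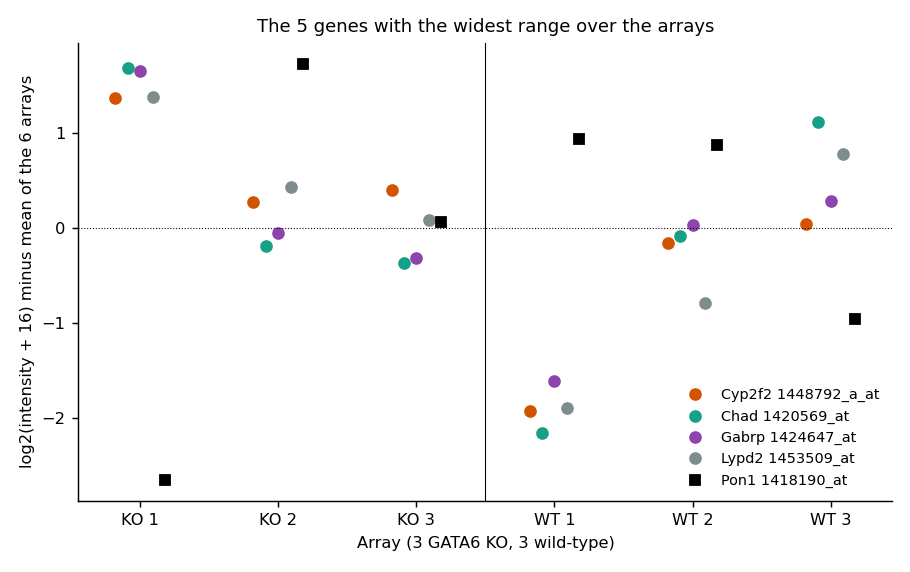
The y axis gives log2(intensity + 16) minus the mean of the 6 arrays for the 5 genes with the widest range, and the x axis the arrays, GATA6 KO left of wild-type. Cyp2f2, Chad, Gabrp and Lypd2 (circles) are highest in KO 1 and lowest in WT 1, and Pon1 (squares) is lowest in KO 1.

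How far single arrays set these differences was seen by leaving each out. With 1 array left out, 7 to 9 of the 11 probe sets read higher in KO, against 8 with all arrays, and within station 2, where WT 3 is the lone WT array, 6 did. The median of the 11 was 0.23 to 0.89 with 1 array left out and 0.01 within station 2. With arrays weighted by their quality Scgb3a1 was 0.82, Pon1 -1.37 and Upk3a -0.67, and with the index of unnamed signal as a covariate Pon1 was -1.09 and Scgb3a1 0.23.

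**Figure D4:**
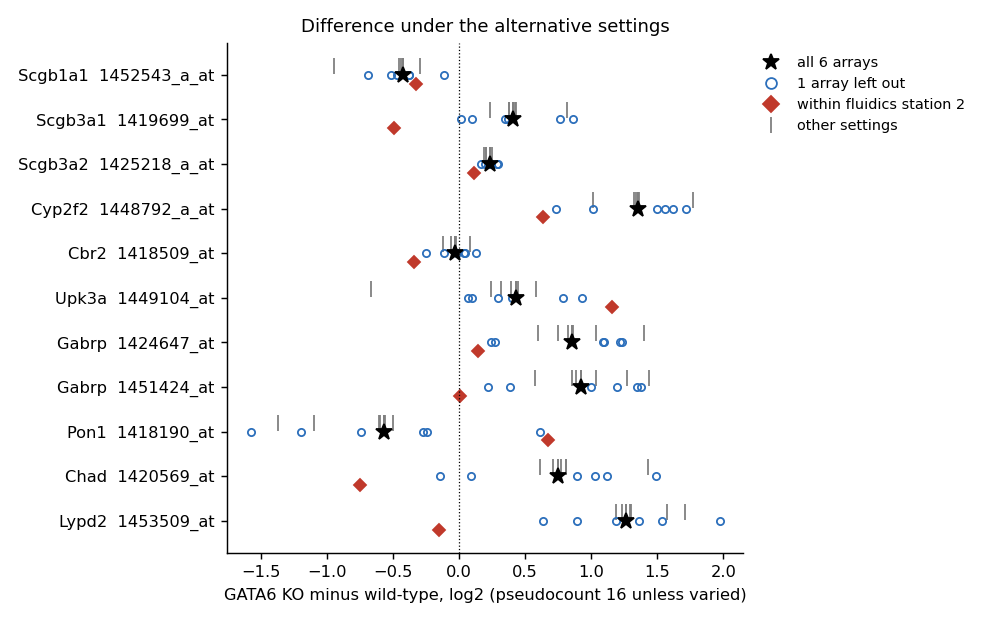
For each probe set the x axis gives GATA6 KO minus wild-type (log2) with all 6 arrays (star), with 1 array left out (circles), within fluidics station 2 (diamond) and under the other settings (ticks). Within station 2 the values of Scgb3a1, Chad, Lypd2 and Pon1 lie on the other side of 0 from the star.

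Profiles were centred and compared by root mean square distance over the 6 arrays. Among 9095 genes with a mean over the 6 arrays above 6.88 log2, the 3 nearest to each of 3 members were picked by rule. For Scgb3a1 they were Drc3, a subunit of the dynein regulatory complex of motile cilia, Lrrc51 and Fam183b, at 0.32, 0.34 and 0.34 log2. For Cyp2f2 they were Lrrc26, Steap4, a metalloreductase, and Rbp4, the retinol carrier, at 0.30, 0.35 and 0.37. For Scgb1a1 they were Npl, Csf2rb and Cmtm7, at 0.11, 0.13 and 0.14. The members' own profiles had a root mean square of 0.66 (Scgb3a1), 0.98 (Cyp2f2) and 0.40 (Scgb1a1), and no test was made of the likeness.

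The upstream sequences of Cyp2f2, Chad and Gabrp, which were all highest in KO 1 and lowest in WT 1, and of the secretoglobin found in the promoter table, are shown because GATA6 binds GATA words. RefSeq starts on GRCm38.p6 were found for 7 of the 10 genes; Scgb1a1, Scgb3a2 and Lypd2 were not matched. Each sequence is the 250 bases before the start, written 5′ to 3′ on the gene's strand, with GATA words in capitals. They lie at chr7:27119705-27119954 (plus strand) for Cyp2f2, chr11:94564797-94565046 (plus) for Chad, chr11:33578958-33579207 (minus) for Gabrp and chr11:49663345-49663594 (plus) for Scgb3a1.
Cyp2f2: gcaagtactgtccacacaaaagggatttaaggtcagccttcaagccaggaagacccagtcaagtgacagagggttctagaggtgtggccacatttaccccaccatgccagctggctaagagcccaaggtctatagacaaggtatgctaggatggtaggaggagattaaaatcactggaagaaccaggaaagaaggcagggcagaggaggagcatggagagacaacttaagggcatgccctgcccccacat
Chad: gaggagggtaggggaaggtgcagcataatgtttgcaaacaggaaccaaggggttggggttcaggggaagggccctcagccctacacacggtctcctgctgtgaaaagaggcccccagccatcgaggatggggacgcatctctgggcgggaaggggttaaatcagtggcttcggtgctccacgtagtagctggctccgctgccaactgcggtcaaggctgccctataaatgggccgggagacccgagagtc
Gabrp: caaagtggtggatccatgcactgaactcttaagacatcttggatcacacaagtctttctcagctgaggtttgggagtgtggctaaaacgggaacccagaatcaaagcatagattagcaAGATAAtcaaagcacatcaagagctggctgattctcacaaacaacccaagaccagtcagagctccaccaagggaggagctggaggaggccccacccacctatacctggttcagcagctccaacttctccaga
Scgb3a1: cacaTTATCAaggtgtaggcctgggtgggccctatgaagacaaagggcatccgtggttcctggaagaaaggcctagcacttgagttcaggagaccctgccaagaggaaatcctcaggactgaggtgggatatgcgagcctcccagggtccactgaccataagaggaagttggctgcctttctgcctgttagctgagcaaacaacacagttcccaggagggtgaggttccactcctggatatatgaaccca

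The word searched on both strands was GATA with A or T before it and A or G after it. Of the 7 windows 4 held 1 match each, those of Gabrp, Pon1, Scgb3a1 and Upk3a, beside 26.5% of 32851 windows of the same length. The match in Gabrp spans -132 to -127 from the start and that in Scgb3a1, on the opposite strand, -246 to -241. Cyp2f2, Chad and Cbr2 had no match in this window. The FOXA word TNTTTAC, with G or A at N, was found in 1 of the 7 (Pon1; 5.76% of all windows) and the NKX2-1 word CTCAAG in 2 (Scgb3a1 and Upk3a; 13.3% of all windows). These words do not overlap each other in the 7 windows. A match describes the letters and is not a binding site.

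Beyond the 10 genes, none of the other club and secretory genes passed. Of 26 listed, 22 had a probe set of their own. Of the 22, 17 read higher and 5 lower in the KO arrays, with a median of 0.18 log2. The share reading higher was 63% over all probe sets and 46.1% over bright ones. Of the 22, 16 were bright, and 12 of those 16 read higher. Among the 17, Tff2 and Ces1f were dim and differed by 0.002 and 0.009. In limma 0 passed in either direction, and 3 had an unadjusted p under 0.05, beside 3.1% of all probe sets. The 3 were Aox3, Mgst1 and Bpifa1. Bpifa1 was dim and near the floor, with means of 4.55 log2 in KO and 4.44 in WT. Aox3, an aldehyde oxidase, read 11.00, 10.66 and 11.04 log2 in the KO arrays and 9.18, 9.19 and 10.04 in the WT arrays. All 3 KO arrays lay above all 3 WT arrays, with a difference of 1.44 (SE 0.27; adjusted p = 0.963), 0.87 within station 2 and from 1.29 to 1.72 with 1 array left out. Mgst1, a microsomal glutathione transferase, differed by 0.41 (SE 0.11, adjusted p = 0.963), again with no overlap, and Ephx1, an epoxide hydrolase, by 0.89 (SE 0.44, adjusted p = 0.963), with overlap. The haptoglobin gene Hp and Cldn10, a claudin of airway epithelium, chosen after their values were seen, also lay apart, with differences of 0.56 and 0.36. The summed intensity of the 22 was 83229 to 84576 in KO and 65841 to 78060 in WT, while that of the 10 genes was 76735 to 87127 in KO and 59149 to 94407 in WT. Such sums weigh the brightest genes most. Among the 22 these were Mgst1, with means of 14.32 log2 in KO and 13.91 in WT, and Retnla, with 13.95 and 13.76. Without WT 1, 13 of the 22 read higher (median 0.11), 12 of the 22 did within station 2 (median 0.05) and with array weights (median 0.01).

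The regulators of secretory cells showed no shared direction. Of 16 measured, 7 read higher and 9 lower, with a median of -0.05, and 0 passed in limma (0 had an unadjusted p under 0.05). Cebpd and Cebpa, C/EBP factors that bind the Scgb1a1 promoter, differed by -0.28 (SE 0.12) and -0.28 (SE 0.18), and Notch1, a receptor of the pathway that sets the secretory fate, by -0.43 (SE 0.27), all with an adjusted p of 0.963. Foxa1, Sox2 and Nkx2-1, chosen after their values were seen, differed by 0.51 (SE 0.49), 0.46 (SE 0.43) and -0.36 (SE 0.46). The Nkx2-1 probe set was dim, with means of 5.52 log2 in KO and 5.88 in WT.

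Markers of neighbouring cell types were read beside these values, and 0 members of any list passed in limma. Of 12 ciliated cell markers, 10 of them bright, 11 read higher in KO (beside 63% of all probe sets and 46.1% of bright ones), with a summed intensity of 9016 to 12479 in KO and 5381 to 10363 in WT; Ccdc113 differed by 0.86 (SE 0.28), Tekt4 by 0.86 (SE 0.38) and Tekt1 by 0.36 (SE 0.17). All 9 alveolar type I markers, all of them bright, read lower in KO, where 63% of all probe sets and 46.1% of bright ones read higher. Their sums were 30994 to 68082 in KO and 69836 to 89318 in WT. Cldn18 differed by -3.04 (SE 0.69), Akap5 by -2.12 (SE 0.52) and Spock2 by -2.00 (SE 0.52). The 8 alveolar type II markers summed to 49534 in KO 1, the array in which Cyp2f2, Chad, Gabrp and Lypd2 were highest, and to between 96925 and 137483 in the other 5. Sftpc, chosen after its values were seen, read 12.71 log2 in KO 1 and 15.37 to 15.79 in the other 5. Of the 8, 2 read higher and 6 lower in KO (median -0.44); Sftpd differed by 0.99 (SE 0.23), Slc34a2 by -0.85 (SE 0.29) and Lpcat1 by -0.64 (SE 0.26), all with an adjusted p of 0.963. The 8 general epithelial markers summed to 33788 to 40649.8 in KO and 35403 to 36739 in WT, overlapping between the labels; 4 read higher and 4 lower, and Krt18 differed by 0.23 (SE 0.17), Krt7 by -0.48 (SE 0.36) and Krt8 by -0.17 (SE 0.13). Of 8 goblet cell markers 7 read higher, beside 63% of all probe sets and 46.1% of bright ones. Among those 7, Foxa3, Gcnt3 and Clca1 were near the floor and differed by 0.005, 0.011 and 0.024. Of the 8, 2 were bright, Muc5b with a difference of 0.77 (SE 0.41) and Creb3l1 with 0.15 (SE 0.43). The summed intensity of the 8 was 1159, 449 and 465 in KO 1, KO 2 and KO 3 and 297, 474 and 560 in WT 1, WT 2 and WT 3, highest in KO 1 and lowest in WT 1 as for Cyp2f2, Chad, Gabrp and Lypd2. Agr2 and Spdef, dim and chosen after their values were seen, read 7.64 and 7.30 log2 in KO 1 and 4.72 and 4.59 in WT 1, and Spdef lay higher in all 3 KO arrays than in all 3 WT arrays (difference 1.22, SE 0.57; adjusted p = 0.963). The part of these cell types in the levels of the club cell genes was not tested.

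**Figure D5:**
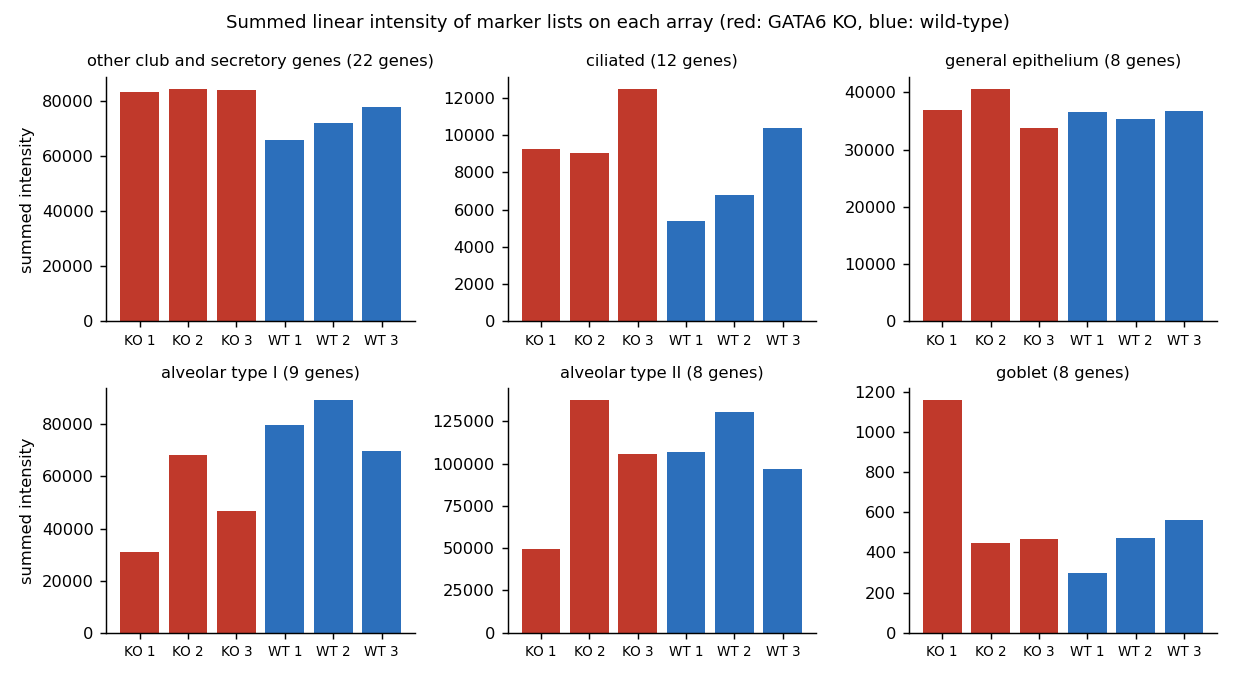
Bars give the summed linear intensity of 6 marker lists on each array, GATA6 KO (red) left of wild-type (blue). The other club and secretory genes and the alveolar type I list do not overlap between the labels, and the alveolar type II sum is lowest in KO 1. Each sum weighs the brightest genes of its list most.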

How the data were processed

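The authors deposited a linear intensity for each of 45101 probe sets on 6 arrays; GCRMA and MAS5 are named, per the submitters' processing notes, with neither role nor order. None was negative, and medians per array ran from 20.6 to 24.1, and no further normalisation was applied, on the assumption that the arrays had been scaled together. Experiment files gave the fluidics station.

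Computed here: log2 after adding 16, and a limma 3.58.1 fit in R 4.3.3 (lmFit, eBayes with trend, two-sided, Benjamini-Hochberg over 45037 probe sets, threshold 0.05), after leaving out 64 controls. SE and intervals are limma's; SD is over 3 arrays. Symbols came from the array annotation by gene ID (34945 probe sets with 1 gene, 932 with several, 9160 with none). For lists, the probe set with the highest mean stood for its gene.

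All 11 member probe sets were named. From each other list the rule took genes past the threshold or, where none passed, the 3 bright ones with the smallest p. Basal, liver, cartilage and mesothelial or urothelial lists are given only as background to single genes, and the lists of endothelium, mesenchyme, haematopoietic cells, cardiac muscle, neuroendocrine cells, and thyroid and oesophagus only through the count of 0 genes past the threshold. Members, lists and tests were chosen with earlier results of these data known. The number of arrays limits precision.

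The fit was tested on simulated data. The array numbers were not taken as pairs: residuals of same-numbered arrays correlated at -0.766, 0.0269 and -0.446. Alternatives covered eBayes settings, array weights, centring, quantile normalisation, the dim filter, pseudocounts 1 and 64, 1 probe set a gene, the replicate block, fluidics station, the unnamed-signal index, and leaving out each array.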

Additional observations from a re-analysis of the deposited data

How the results depend on the processing

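Under the 19 alternatives, where its values could be fitted, no probe set of the 10 genes passed the threshold. Over all probe sets 0 passed, and 1 did with each array centred on its median, 1 of 18193 with 1 probe set a gene, and 37 with fluidics station as a block; leaving out 1 array gave 0 to 0. The median difference of the 11 probe sets was 0.43; it was 0.753 with array weights, 0.585 with a pseudocount of 1, 0.01 with station as a block or within station 2, and 0.225 to 0.892 with 1 array left out. With the replicate block (array number), which no pairing backs, it stayed 0.43 and 0 probe sets passed. Under both station settings Scgb3a1 turned to -0.493, Pon1 to 0.678, Chad to -0.745 and Lypd2 to -0.15; WT 3 is then the lone WT array and is assumed to vary like the KO arrays. Upk3a turned to -0.668 with array weights and Cbr2 to 0.0877 with the index of unnamed signal as a covariate. With 1 array left out, Cbr2 ran from -0.25 to 0.131 (0.047 without KO 3, 0.0396 without WT 2, 0.131 without WT 3), Pon1 from -1.575 to 0.615 (without KO 1) and Chad from -0.144 (without WT 1) to 1.494. None of these values passed, and the cause was not tested.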
